A study of Bos taurus with 22 samples.

Results

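Adipose tissue secretes hormones, called adipokines, and the 7 genes described here encode adiponectin, its receptors and 4 further adipokines. ADIPOQ encodes adiponectin itself, ADIPOR1 and ADIPOR2 its receptors, RETN resistin, NAMPT visfatin, AGT angiotensinogen and RARRES2 chemerin. Members were taken as every probe set (the group of short probes that reports 1 transcript) whose single gene symbol in the array annotation was one of these 7. That gave 8 probe sets of 24016 bovine ones: 2 for NAMPT and 1 for each of the others. The mean of 7 of the 8, for 6 genes, reached the 40th percentile of all probe sets, below which a probe set was taken as too dim to test. RETN lay below it.

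The study asked how lactation alters transcripts of subcutaneous white adipose tissue, taken dorsally, in first-calving Holstein heifers of 1 farm. They calved at 24 to 28 months of age. The prepartum group holds 11 arrays from 30 days before calving and the postpartum group 11 arrays from 14 days after it, 1 of each per cow, and the change within a cow is the comparison. No diet was tested. Before calving the animals ate alfalfa haylage, orchardgrass hay and a concentrate freely; the postpartum ration is not given in the sources used here.

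Adiponectin is made almost exclusively by adipocytes, circulates as multimers and raises insulin sensitivity, and its receptors act through AMP-activated protein kinase, PPARA and ceramide breakdown. In dairy cows plasma adiponectin is known to be low around calving. Resistin in humans comes mainly from monocytes and macrophages. NAMPT is both a secreted protein and the enzyme that recycles nicotinamide to NAD. Angiotensinogen is the precursor of angiotensin II, and chemerin draws in immune cells and acts on adipocyte differentiation.

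The tissue label was checked against 15 adipocyte markers. A total of 13 were kept, none was at 0 on any array, and their summed signal ran from 20734 to 34393 prepartum and from 14412 to 29409.9 postpartum. PLIN1 and PLIN4 had no probe set with their single symbol. Single arrays stood apart. A muscle score was formed from 14 kept skeletal muscle markers as the median of their log2 distances from each gene's own median. It was 8.06 for cow 384 postpartum, 7.43 for the prepartum sample labelled cow 387, 4.12 for cow 386 postpartum, 2.94 for cow 384 prepartum and at most 0.77 elsewhere. A like score of 2 kept epidermal markers was 1.41 to 3.15 in the prepartum samples of cows 330, 331, 341 and 382 and at most 0.46 elsewhere. These 2, of 10 listed, were KRT10 and KRT5. Their mean log2 changes after calving were -1.77 and -0.019, so the score may rest on KRT10 alone. Its worth as a measure of epidermis was not tested. The arrays of the pair labelled cow 387 correlated at -0.09 after subtraction of group means, against 0.18 to 0.43 in the other 10 pairs. The pair may not be 1 animal, but its muscle scores also differed widely, at 7.43 prepartum and -0.21 postpartum. These 2 accounts cannot be told apart here. Results are therefore also given for the 9 cows without 384 and 387. The titles end in 1 of 2 codes of unstated meaning, here array set 1 (5 cows) and array set 2 (6 cows, 384, 386 and 387 among them).

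None of the 7 kept probe sets passed the test of the postpartum effect (limma with cow as a block, Benjamini-Hochberg adjusted p under 0.05), where 3.43% of all kept probe sets did (1.98% lower, 1.44% higher). At an unadjusted p under 0.05 the count was 1 of 7 (ADIPOR2), against 19.8% of all kept probe sets. No member passed under any alternative, the ordinary paired test among them. The changes of the 8 probe sets lay between -0.30 and 0.25 log2 units. ADIPOQ had the mean change nearest to 0, and ADIPOR2 had the lowest adjusted p of the kept members.

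**Figure D1:**
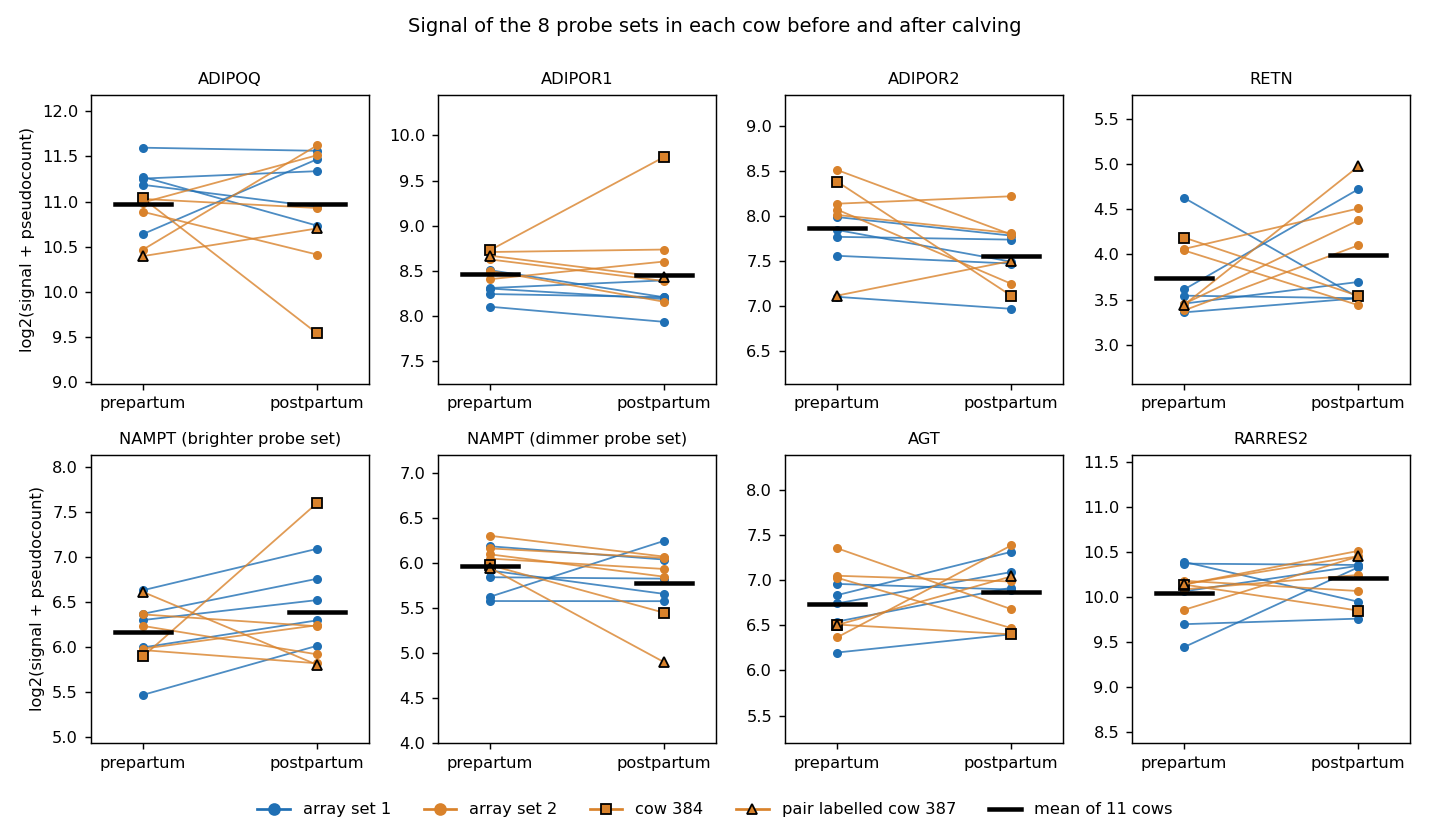
Each panel shows 1 probe set, with log2(signal + 7.78) on the vertical axis (all panels span the same number of log2 units) and a line for each of 11 cows from prepartum to postpartum; colour gives the array set and black bars the group means. The ADIPOR2 line runs downward in 9 of 11 cows, the ADIPOQ lines cross, and cow 384 (square) takes the lowest ADIPOQ and the highest ADIPOR1 postpartum value.

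ADIPOQ signal was 1339 at the lowest, 2082 at the median and 3091 at the highest of the 11 prepartum arrays, and 736, 1960 and 3144 postpartum. The ranges overlapped almost wholly, with the lowest value of all in the postpartum array of cow 384. Mean log2 levels were 10.98 ± 0.36 (SD, n = 11) prepartum and 10.98 ± 0.63 (SD, n = 11) postpartum. The change was 0.00087 log2 units (SE 0.19, limma adjusted p = 0.998, higher in 5 and lower in 6 of 11 cows; 2-sided exact sign-flip p = 0.999). Its 95% interval, -0.40 to 0.40, allows anything from a 0.757-fold to a 1.32-fold level postpartum, so these arrays cannot exclude a moderate change. In bulk tissue fewer adipocytes and less RNA per adipocyte cannot be told apart.

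Around that mean, single cows differed widely and in both directions. Signal went from 1408 to 3144 in cow 330 and from 1587 to 2827 in cow 347, changes of 1.16 and 0.83. It went from 2091 to 736 in cow 384 and from 2467 to 1695 in cow 360, changes of -1.50 and -0.54. The SD of the change over cows was 0.72, where the median over all 6984 genes tested was 0.37. No relation between a cow's prepartum and postpartum level was detected: over 11 cows Pearson r was 0.0089 (permutation p = 0.979) and Spearman rho 0.036 (permutation p = 0.924), and r was -0.35 without the 2 cows farthest from the prepartum median. Without cows 384 and 387 the change was 0.13 ± 0.58 (SD, n = 9, limma adjusted p = 0.661), so the spread was smaller there.

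LEP, which encodes leptin and served as the contrasting adipokine, fell on average over the same cows (log2 change -1.78, SE 0.40, limma adjusted p = 0.0268). LEP was lower postpartum in 9 of 11 cows and higher in cows 338 and 387. The LEP change minus the ADIPOQ change was -1.78 log2 units on average (SD 1.31, n = 11, lower in 9 of 11 cows, exact sign-flip p = 0.00391, and 0.0117 adjusted over 3 such within-cow differences). In the 9 cows that mean was -1.91 (exact sign-flip p = 0.00781, lower in 8 of 9). This contrast was chosen after both changes had been seen, so its p-values are descriptive.

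**Figure D2:**
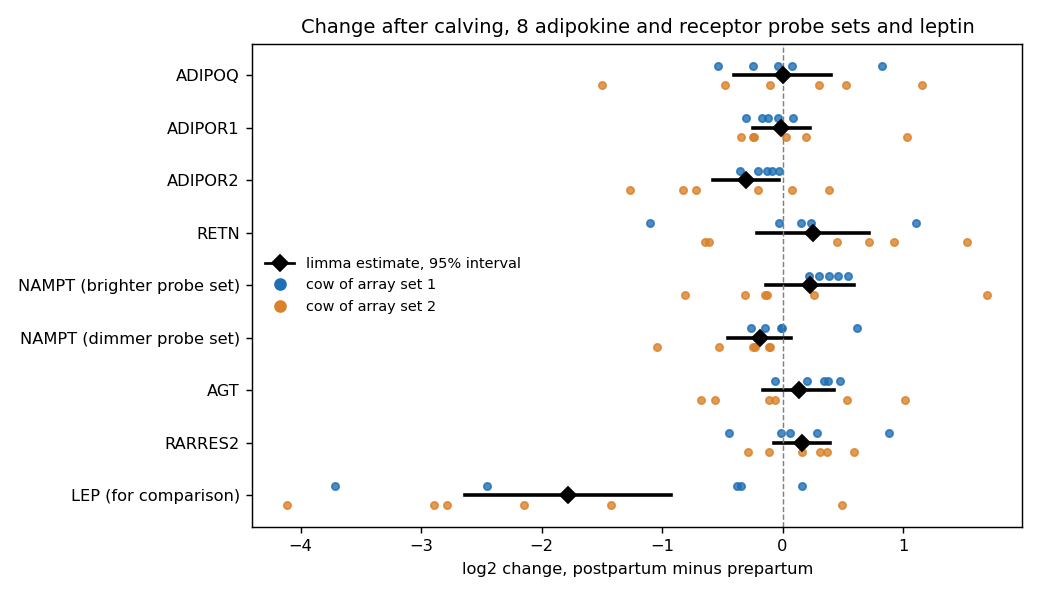
The horizontal axis gives the postpartum minus prepartum log2 change; diamonds with bars are the limma estimate and its 95% interval over 11 cows, and dots are single cows by array set. The intervals of all 8 probe sets lie between -0.58 and 0.71, that of ADIPOR2 ends at -0.028, and that of LEP ends at -0.93.

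ADIPOR2, the receptor linked mainly to PPARA, had a signal of 130 at the lowest, 246 at the median and 357 at the highest prepartum, and of 118, 173 and 290 postpartum. The groups overlapped, but the postpartum array was the lower one in 9 of 11 cows. Mean log2 levels were 7.86 ± 0.46 (SD, n = 11) and 7.56 ± 0.36 (SD, n = 11). The change of -0.30 log2 units (SE 0.13, 95% interval -0.58 to -0.028, 1.23-fold lower) had an unadjusted p of 0.0333 and an adjusted p of 0.205 by limma, and an exact sign-flip p of 0.0527. It did not pass. Cows 330 and 387 went the other way, with changes of 0.082 and 0.38, and cows 384, 382 and 346 had the most negative ones, at -1.26, -0.82 and -0.72.

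Among the 9 cows the ADIPOR2 change was -0.27 ± 0.31 (SD, n = 9), lower in 8 of 9 (limma adjusted p = 0.107, exact sign-flip p = 0.0117 unadjusted), where 7.43% of all kept probe sets passed limma's test. That set leaves out both the most negative change (cow 384) and the most positive one (cow 387). Without cow 384 alone the change was -0.21 (limma unadjusted p = 0.0672, adjusted p = 0.251). Without cow 387 alone it was -0.37 (limma adjusted p = 0.112). The adjusted p lay between 0.107 and 0.596 over all alternatives of this gene. Every one of them kept the negative sign, though those that vary only the block, the filter or the variance model cannot move the estimate.

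ADIPOR1, the receptor linked mainly to AMP-activated protein kinase, had signals of 267, 354 and 416 (lowest, median, highest) prepartum and of 237, 327 and 860 postpartum. A single array, the postpartum one of cow 384, stood at 860, and the next highest postpartum value was 418. Log2 means were 8.46 ± 0.21 (SD, n = 11) and 8.45 ± 0.49 (SD, n = 11). The change was -0.0092 (SE 0.11, 95% interval -0.25 to 0.23, limma adjusted p = 0.975), with the postpartum array lower in 7 of 11 cows. In the 9 cows it was -0.099 ± 0.18 (SD, n = 9; limma adjusted p = 0.433).

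Whether the receptors changed unequally was tested within cows. The ADIPOR2 change minus the ADIPOR1 change was -0.29 log2 units on average (SD 0.74, lower in 7 of 11 cows, exact sign-flip p = 0.192). Without cows 384 and 387 the difference was -0.17 (SD 0.23, n = 9, exact sign-flip p = 0.0898). An unequal response of the receptors was not shown.

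Over all 11 cows ADIPOR1 had the highest correlation between prepartum and postpartum levels (Pearson r = 0.65, permutation p = 0.0151; Spearman rho = 0.71, permutation p = 0.0177; n = 11 cows; r = 0.57 without the 2 cows farthest from the prepartum median). Over the 8 probe sets so examined its adjusted p was 0.121 for r and 0.142 for rho, so that no probe set passed. That place depended on the cows: without cows 384 and 387 r was 0.68 for ADIPOR1 and 0.69 for the brighter NAMPT probe set, and without the 2 farthest cows the dimmer NAMPT probe set had 0.59. For ADIPOR2 r was 0.37 (permutation p = 0.265), which was 0.0090 without the 2 farthest cows and 0.68 without cows 384 and 387.

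**Figure D3:**
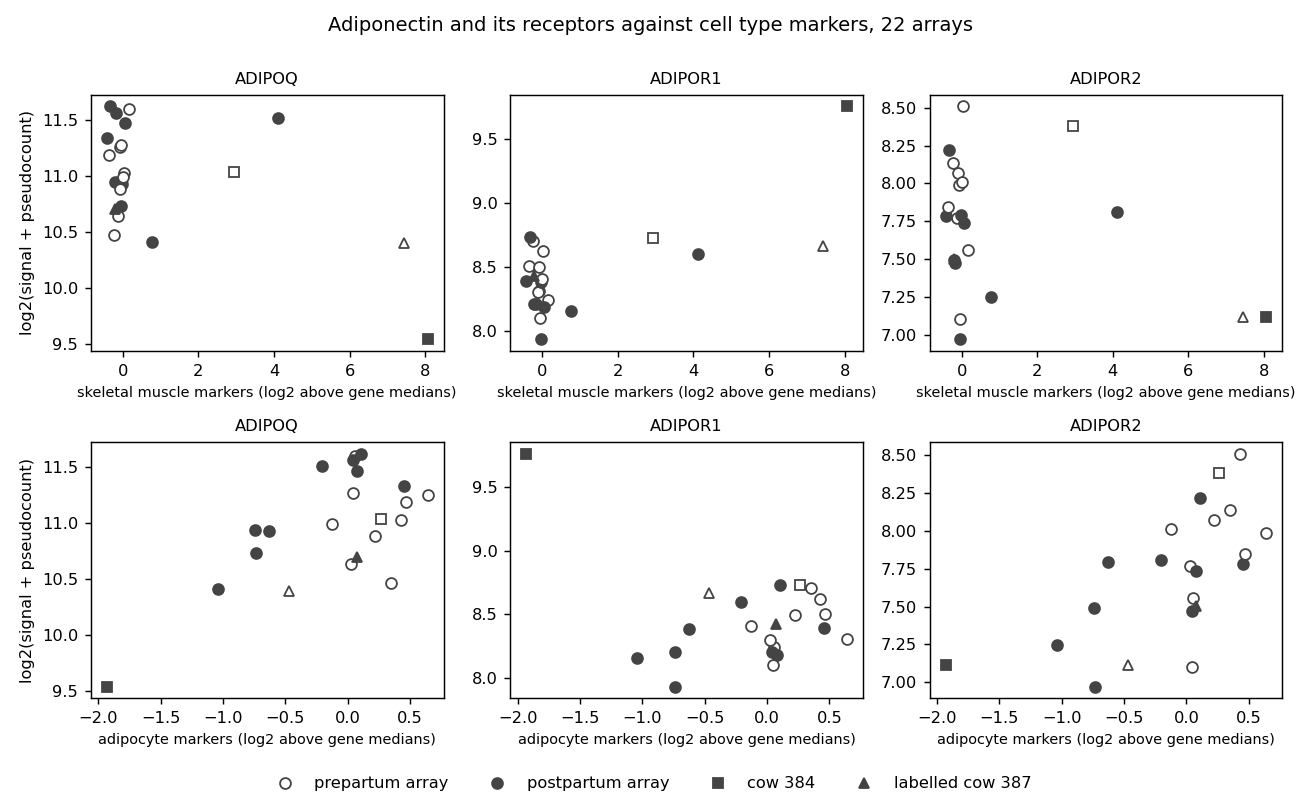
The vertical axes give log2(signal + 7.78) of ADIPOQ, ADIPOR1 and ADIPOR2 on each of 22 arrays, and the horizontal axes the score of the skeletal muscle (top) or adipocyte (bottom) markers, in log2 units; open points are prepartum. The postpartum array of cow 384 (filled square) lies at 8.06 for muscle and -1.93 for adipocyte markers, with the lowest ADIPOQ and highest ADIPOR1 level.

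Some arrays with high muscle markers, chiefly the postpartum one of cow 384, took extreme places in several members. The postpartum array of cow 384 had the lowest ADIPOQ, the highest ADIPOR1 and the highest NAMPT signal of the brighter probe set, 186 against at most 128 elsewhere. The dimmer NAMPT probe set went the other way in cow 384, from 55.1 prepartum to 35.8 postpartum. The adipocyte markers of that postpartum array were the lowest of all arrays, at -1.93 against -1.04 to 0.64 in the others. The prepartum array labelled cow 387 had the lowest prepartum ADIPOQ (1339), and its ADIPOR2 signal of 131 was second lowest before calving. The prepartum array of cow 384 had the highest prepartum ADIPOR1 (416, the next being 410) and the second highest ADIPOR2 (326), with an ADIPOQ signal of 2091. By contrast, the postpartum array of cow 386 was neither the highest nor the lowest in ADIPOQ (2916), ADIPOR1 (381) or ADIPOR2 (217). The muscle markers' summed signal ran from 1889 to 57738 prepartum and from 1726 to 96392 postpartum. With the muscle marker median as a covariate beside the replicate block, the changes were 0.015 for ADIPOQ, -0.022 for ADIPOR1 and -0.29 for ADIPOR2 (adjusted p = 0.974, 0.923 and 0.123 by limma).

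Among the 15 pairs of the 6 kept genes, the changes of ADIPOQ and ADIPOR2 had the highest r over all 11 cows (Pearson r = 0.77, permutation p = 0.00599, 0.0898 adjusted over 15 pairs; Spearman rho = 0.74, permutation p = 0.013, adjusted 0.195). Without the 2 cows farthest from the median ADIPOQ change r was 0.52, and over the 9 cows 0.63. Other pairs turned sign there: ADIPOR2 and NAMPT went from -0.55 over 11 cows to 0.71 over the 9, and ADIPOR1 and ADIPOR2 from -0.50 to 0.65. ADIPOR1 and NAMPT had r = 0.75 (permutation p = 0.0261, adjusted 0.196; Spearman rho = 0.36, permutation p = 0.274, adjusted 0.732), which was 0.036 over the 9 cows, so that relation rested on cows 384 and 387. No pair passed after adjustment.

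RARRES2 (chemerin) signal was 690, 1119 and 1334 (lowest, median, highest) prepartum and 860, 1279 and 1452 postpartum. The ranges overlapped, and 3 postpartum arrays, at 1391, 1394 and 1452, lay above the highest prepartum one. Log2 means were 10.05 ± 0.28 and 10.21 ± 0.26 (SD, n = 11 each). The change was 0.16 (SE 0.11, 95% interval -0.070 to 0.40, limma adjusted p = 0.44, higher in 7 of 11 cows). It ran from -0.44 in cow 338 to 0.88 in cow 341, and was 0.092 without cow 341. Without cows 330, 331, 341 and 382, those of the high score of KRT10 and KRT5, the change was 0.046. The part of that score was not tested further.

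AGT, the angiotensin precursor, had signals of 65.7, 99.3 and 156 prepartum and of 76.7, 113 and 159 postpartum. These ranges nearly coincided. The change was 0.14 (SE 0.14, 95% interval -0.16 to 0.43, limma adjusted p = 0.632, higher in 6 of 11 cows). It was 0.047 without cow 382, 0.21 without cow 330 and 0.22 without cow 346, and 0.27 in array set 1 against 0.025 in set 2. Cow 382 went from 74.7 to 159 and cow 346 from 156 to 94.7, so the cows crossed over. Pearson r between a cow's prepartum and postpartum AGT level was -0.022 (permutation p = 0.947, Spearman rho -0.082, permutation p = 0.82, n = 11).

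NAMPT was read by 2 probe sets that disagreed in sign. The brighter had signals of 36.5, 67.5 and 91.2 prepartum and of 48.1, 67.9 and 186 postpartum (change 0.22, SE 0.17, limma adjusted p = 0.508, higher in 7 of 11 cows). The dimmer had 39.9, 55.1 and 71.0 prepartum and 22.03, 49.7 and 68.0 postpartum (change -0.19, SE 0.12, limma adjusted p = 0.423, lower in 10 of 11 cows). Neither passed, and the groups overlapped on both probe sets. The brighter probe set's change was 0.077 without cow 384 alone and 0.18 without cows 384 and 387. That of the dimmer was -0.10 without cow 387 alone and -0.056 without both.

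The brighter NAMPT probe set exceeded the dimmer in its change by 0.41 log2 units (SD 0.67, higher in 7 of 11 cows, exact sign-flip p = 0.0254, 0.0381 adjusted over 3 differences). In the 9 cows the difference was 0.23 (higher in 5 of 9, exact sign-flip p = 0.0742). This contrast, too, was chosen after both changes had been seen, so its p-values are descriptive. The mean of both probe sets had a change of 0.018 (limma adjusted p = 0.955). A direction for NAMPT could therefore not be given.

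RETN (resistin) was near the floor of the array throughout. Its signals were 2.47, 3.88 and 16.9 prepartum and 3.06, 5.17 and 23.7 postpartum, all below the filter at a signal of 25.3. Without the filter the change was 0.25 (SE 0.22, limma adjusted p = 0.662, higher in 7 of 11 cows); it was 0.44 with a pseudocount of 1 and 0.11 with 32. Leaving out cow 347, 360 or 387 gave 0.16, 0.39 and 0.12. Macrophage and monocyte markers, of which 11 were kept of 14, had a summed signal of 2274 to 5809 prepartum and 2235 to 12336 postpartum. Both that sum and RETN were highest in the postpartum sample labelled cow 387. The next highest RETN signals were 18.6 in cow 347 postpartum and 16.9 in cow 360 prepartum, with marker sums of 4281 and 2442. The part of these markers in the RETN values was not tested.

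For the array sets, no member passed limma's interaction test of a difference in the postpartum effect (adjusted p from 0.996 to 0.998), nor did any of the 14410 kept probe sets (0% called, and 3.58% at an unadjusted p under 0.05, where no member lay over 11 cows). The mean ADIPOQ change was 0.019 ± 0.51 (SD, n = 5) in set 1 and -0.014 ± 0.91 (SD, n = 6) in set 2. For ADIPOR2 it was -0.16 ± 0.12 (SD, n = 5) and -0.42 ± 0.62 (SD, n = 6), negative in 5 of 5 and 4 of 6 cows. The brighter NAMPT probe set was higher postpartum in each of the 5 cows of set 1 (0.38 ± 0.13, SD, n = 5) and in 2 of 6 of set 2 (0.094 ± 0.86, SD, n = 6). That difference between sets was -0.29 (exact permutation p = 0.535, all 462 ways to divide the animals). Without cows 384 and 387 it was -0.47 (limma unadjusted p = 0.0236, adjusted p = 0.997). The dimmer NAMPT probe set had the lowest p of the 8 (difference -0.42, exact permutation p = 0.0606).

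The genes whose levels ran most like ADIPOQ over the 22 arrays were MPP1, a membrane scaffold protein (r = 0.90), TXLNG (0.89), PRXL2A (0.88), ACAA2, a mitochondrial thiolase (0.86), and EPAS1, a hypoxia-inducible transcription factor (0.86). They were picked as the highest of 6978 genes, so their r is a description, and the arrays share cows. Over the 18 arrays without cows 384 and 387, r was 0.82 for MPP1, 0.79 for TXLNG, 0.77 for PRXL2A, 0.70 for ACAA2 and 0.67 for EPAS1. In that order their ranks over the 18 arrays were 1, 3, 8, 19 and 32. The changes of these 5 genes after calving lay between -0.13 and -0.0093, and none passed limma's test. ADIPOR2 ran most like SREBF1, a transcription factor of lipid synthesis genes (r = 0.82, and 0.81 over 18 arrays), GALNT16 (0.80) and EXOC1 (0.79).

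For ADIPOR1 the most alike were NDUFAF8 (r = 0.92), COQ3, an enzyme of ubiquinone synthesis (0.91), and BAG3, a cochaperone (0.90), with r of 0.77, 0.79 and 0.70 over 18 arrays. Over those 18 arrays they ranked only 22, 15 and 78. For NAMPT the most alike were IPO7, a nuclear import receptor (0.86), RNF103 (0.84) and RPP30 (0.84), with 0.78, 0.70 and 0.74 over 18 arrays. AGT had DGCR8, a microRNA processing factor (0.71), PTH1R, the parathyroid hormone receptor (0.70), and ERCC1, a DNA repair protein (0.70), with 0.73, 0.63 and 0.67 over 18 arrays. RARRES2 had SRPX (0.76), BRB, a brain ribonuclease (0.76), and KLF11, a Kruppel-like transcription factor (0.74), with 0.75, 0.78 and 0.72 over 18 arrays.

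The wider pathways were read from 6 lists, counted over kept genes, where 3.71% of all genes were called, 1.55% higher and 2.16% lower. Over the 9 cows the shares were 8.2%, 3.82% and 4.38%. At an unadjusted p under 0.05 stood 19.8% of all kept probe sets. The lists held 4 of 9 such adiponectin genes, 2 of 7 angiotensin genes and 2 of 4 chemerin genes. Of resistin, NAD and other adipokine genes they held 0 of 3, 3 of 10 and 6 of 11. The lists are small and no set test was run. The adiponectin list covers assembly in the endoplasmic reticulum, the binding protein T-cadherin and signalling by AMP-activated protein kinase. Of its 20 genes 9 were kept; 1 rose and none fell, and the median change was 0.085 beside 0.0098 over all genes. GSTK1, also known as DsbA-L and linked to the assembly of adiponectin multimers, rose 1.29-fold (log2 change 0.37, SE 0.09, limma adjusted p = 0.0393, higher in 10 of 11 cows). The adiponectin list held no call without the filter, without the replicate block, or when any 1 of cows 341, 346, 347, 360, 382 and 386 was left out, and 2 without cow 384 or 387. CDH13, which encodes T-cadherin, had a change of -0.60 (limma adjusted p = 0.0956, lower in 10 of 11 cows) and passed over the 9 cows (-0.56, limma adjusted p = 0.0267). ASAH1, a ceramidase, had 0.35 (adjusted p = 0.0589) and PRKAA1, a catalytic subunit of the kinase, 0.21 (adjusted p = 0.354).

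**Figure D4:**
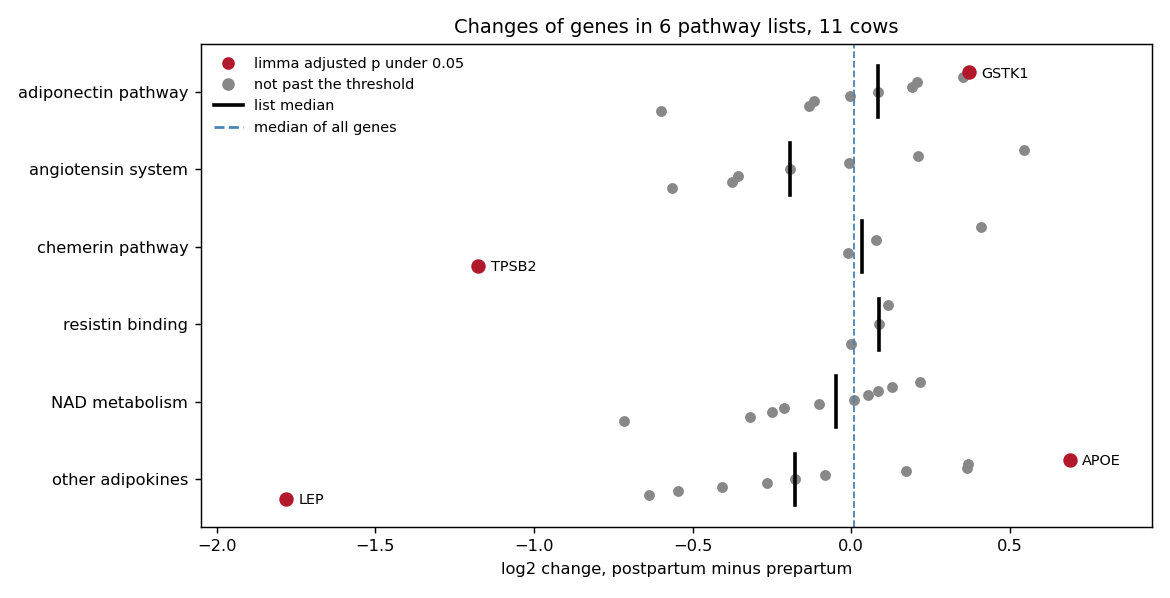
Each dot is 1 kept gene of a pathway list, placed by its log2 change over 11 cows on the horizontal axis; red dots passed limma's test, black bars are list medians and the dashed line the median of all 6984 genes. The 4 red dots are GSTK1, TPSB2, APOE and LEP.

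Of 15 angiotensin system genes 7 were kept and none passed with limma (median -0.19). An unadjusted p under 0.05 was reached by 2, against 19.8% of all kept probe sets. AGTR1, the main receptor for angiotensin II, had a change of -0.56 (adjusted p = 0.0875), ATP6AP2, the prorenin receptor, -0.36 (adjusted p = 0.0829), the aminopeptidase ANPEP 0.55 (adjusted p = 0.264) and the endopeptidase MME -0.38 (adjusted p = 0.383). In the 9 cows AGTR1 and ATP6AP2 fell and ANPEP rose (changes -0.36, -0.35 and 0.80, adjusted p = 0.0241, 0.0123 and 0.0368 by limma). The list had 2 calls without cow 384 alone and 1 without cow 387 alone.

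Of 11 genes of chemerin receptors and processing proteases 4 were kept (median 0.034), of which 1 fell. TPSB2, a mast cell tryptase, fell 2.26-fold (log2 change -1.18, SE 0.16, limma adjusted p = 0.0022) and was lower in 11 of 11 cows, with median signals of 229 and 72.7. The protease CTSK had a change of 0.41 (adjusted p = 0.175) and rose by 0.58 over the 9 cows (limma adjusted p = 0.00946). CTSS, a macrophage protease, had a change of 0.079 and CMKLR2, a chemerin receptor, of -0.011. CMKLR1, the main chemerin receptor, had no probe set with its single symbol.

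The resistin list kept 3 of 4 proposed binding partners, and none passed with limma or had an unadjusted p under 0.05 (median 0.088): TLR4 had a change of 0.12, decorin (DCN) 0.088 and CAP1 0.00043. Of 16 genes of NAD metabolism 10 were kept and none passed with limma (median -0.046). An unadjusted p under 0.05 was reached by 3, against 19.8% of all kept probe sets. QPRT, which makes NAD precursors from tryptophan, had a change of -0.72 (adjusted p = 0.109), NADK, the NAD kinase, -0.32 (adjusted p = 0.171), the mitochondrial deacetylase SIRT3 -0.25 (adjusted p = 0.117) and NUDT12 0.22 (adjusted p = 0.424). Among the 9 cows SIRT3 and NADK fell (-0.31 and -0.36, limma adjusted p = 0.0442 and 0.0497).

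Among 29 other adipokines 11 were kept, of which 1 rose and 1 fell (median -0.18). APOE, the apolipoprotein, rose 1.61-fold (log2 change 0.69, SE 0.14, limma adjusted p = 0.0143, higher in 10 of 11 cows), and LEP was the one that fell. The list held 1 call when any 1 of cows 330, 341, 346, 360 and 382 was left out. RBP4, the retinol carrier, had a change of -0.64 (adjusted p = 0.184) and the chemokine CCL2 of -0.55 (adjusted p = 0.295). C1QTNF7, an adiponectin paralog named here after its values were seen, had a change of 0.36 (adjusted p = 0.175) and rose over the 9 cows (0.50, limma adjusted p = 0.0245). Of the adipocyte markers 3 of 13 fell (LEP, LPL and GPD1) and 11 had a negative change (median -0.46), beside the ADIPOQ change of 0.00087; 6 of 13 fell in the 9 cows.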

How the data were processed

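RNA of 22 samples was hybridised to Affymetrix bovine arrays. The deposited values are linear signal intensities; per the submitters' processing notes, the authors used MAS5. Software version, settings and build: not given in the sources used here. Each array, as deposited, had a mean intensity of 125 once 2% of values were trimmed at each end. Arrays give no read depth, and their number limits the precision.

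After removal of 112 control probe sets, values were taken as log2(signal + 7.78), where 7.78 is the 20th percentile of an array (median of 22 arrays); fold changes carry this pseudocount and so understate dim genes. Probe sets with a mean at or above the 40th percentile were kept (14410). A gene (6984) was its kept probe set of highest mean. Symbols came from the annotation through Entrez identifiers to a RefSeq table of ARS-UCD2.0 (13283 probe sets); no coordinates were used. limma 3.58.1 (R 4.3.3) was fitted to all kept probe sets with intensity trend and cow as a fixed block, adjusted by Benjamini-Hochberg at 0.05. The cow numbers pair the samples by the series design; own-pair correlations are in the report. Sign-flip and array set tests were exact and 2-sided, correlations used 100000 permutations. On simulated data, the test recovered 91% of 100 probe sets given a change of 1 log2 unit and 53% of 100 given 0.5 (postpartum effect, 14410 probe sets, 14 false of 158 calls). The simulated residuals were normal and drawn independently for each probe set and array. Arrays that stand apart in many genes, as some do here, were not simulated, so recovery on the measured arrays may differ. Figures used matplotlib 3.10.9 in Python 3.11.15.

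The members, lists and alternatives were chosen with earlier results of these data known. The within-cow differences between 2 probe sets, the exact test of array sets and the correlations of prepartum with postpartum levels were added after values had been seen. Named genes were all members, every called gene of a list and those of largest change up to 4 a list, and the genes of highest r. Alternatives varied block, normalization, pseudocount, filter, variance model, weights, cows, array set, muscle covariate and probe set.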

Additional observations from a re-analysis of the deposited data

How the results depend on the processing

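None of 187 alternative values of the 7 member genes was called, and 172 kept sign and call; those that turned belong to ADIPOQ and ADIPOR1, whose changes were near 0. Alternatives that vary only the block, the filter or the variance model, and the sign-flip test, leave the estimate unmoved and could not turn its sign. ADIPOQ was -0.073 without cows 330, 331, 341 and 382 and -0.014 in array set 2 alone, and -0.11 to 0.15 without single cows. ADIPOR1 was 0.061 and 0.072 in the same settings, and -0.11 to 0.024 without single cows. The dimmer NAMPT probe set was 0.039 in array set 1 alone. The set difference of ADIPOQ was 0.26 without cows 384 and 387. The cause was not tested. Without the replicate block, which cannot move an estimate when each cow has 1 array of each group, the adjusted p of ADIPOR2 was 0.382 by limma, and no member was called.

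Against 494 probe sets called over all, limma gave 291 with an ordinary paired test, 1076 with array weights, 1070 without cows 384 and 387, 6 without cows 330, 331, 341 and 382, 69 with the 5 cows of array set 1, 0 with the 6 of array set 2 (1526 before adjustment), and 242 to 969 without single cows (969 without 384; 242 to 314 without 330, 341, 346, 347, 360 or 382). It was 338 without the replicate block. The adiponectin list had 0 calls with no replicate block and 0 with no filter, 2 with cows 384 and 387 left out, and 0 to 2 when 1 cow was left out (0 without 341, 346, 347, 360, 382 or 386; 2 without 384 or 387). With both cows 384 and 387 left out, angiotensin genes had 3 calls, chemerin genes 2 and NAD genes 2; leaving out single cows gave 0 to 2, 1 to 2 and 0 to 1. The NAMPT probe set difference fell short of the threshold without both cows (0.23). Other adipokines had 1 call with no replicate block and 1 to 3 without single cows. Dim signal limits RETN and both NAMPT probe sets. The 60th percentile filter dropped both NAMPT probe sets. Leaving out single cows for the lists, and cows 384 and 387 for within-cow differences and for prepartum against postpartum levels, was chosen after seeing the data.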
